A study of Mus musculus and Rattus norvegicus with 37 samples.

Results

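Transcripts of 9 genes of growth hormone signalling were followed in the livers of mice and rats: the receptor gene Ghr, the transcription factor genes Stat5a and Stat5b, their feedback inhibitors Socs2 and Cish, the regulators Bcl6 and Cux2, and the sex-biased liver genes Hsd3b5 and Slco1a1. They were picked by gene name from the 47929 uniquely named genes of the mouse tables and the 28026 of the rat tables, and all 9 were found in all 4 tables. Hsd3b5 was put on the list because it rose with LNA29, so its LNA29 values are given as a description, without a test. The other members and the gene lists were also chosen with earlier results of these data known. Their calls, and their counts beside the share over all genes, are therefore not independent of these data.

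The study asked what happens in the liver when the microRNA miR-29 is inhibited, and whether the answer changes without the deacetylase SIRT1. Female mice on the C57BL/6J background, fed chow, received 1 subcutaneous injection of LNA29, a pair of locked nucleic acid oligonucleotides against miR-29a and against miR-29b and miR-29c (20 mg/kg each), or of saline, at 3 h after lights on (ZT 3), and livers were taken on day 7 from fed animals. The WT/Floxed mice pooled wild-type mice of 9 to 11 weeks (4 with LNA29, 3 with saline) and mice of 15 to 20 weeks with a floxed Sirt1 gene and no Cre (4 with LNA29, 2 with saline). Their liver-specific Sirt1 knockout littermates (L-Sirt1 KO, 15 to 20 weeks) formed groups of 4 with LNA29 and 4 with saline. The male rats were 4 Zucker fatty rats (ZFR, fa/fa, without a working leptin receptor) and 4 Zucker lean rats (ZLR), all 5.5 months old, and 8 ZFR of 3 months that had received BT2, an inhibitor of the kinase of branched-chain ketoacid dehydrogenase (20 mg/kg daily for 1 week in DMSO, n = 4), or the DMSO vehicle (n = 4). Saline was the control for LNA29, so a response to an oligonucleotide of any sequence cannot be told apart from one to miR-29 inhibition. The driver of the Cre is not given in the sources used here. One floxed mouse with saline was left out by the authors.

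In hepatocytes, growth hormone binds its receptor GHR, the attached kinase JAK2 phosphorylates STAT5, mainly STAT5B, and STAT5 enters the nucleus and switches on Igf1, Socs2 and Cish. SOCS2 and CISH then damp the receptor. The pituitary releases growth hormone in separated pulses in males and more evenly in females, and the liver reads this pattern: BCL6, a repressor that competes with STAT5, and the steroid enzyme gene Hsd3b5 and the organic anion transporter gene Slco1a1 are higher in male mice, and the repressor CUX2 is higher in females. Because the pulses come and go, a single liver shows the state of 1 moment.

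The values are normalized counts, that is, estimated reads per gene divided by a factor per library, and each of the 4 tables was scaled on its own, so levels are compared within a table only. Estimated depth was 42.6 to 78.0 M reads (1 M is 1000000) in the 21 mouse libraries. In the 16 rat libraries it ran from 0.188 to 58.5 M, and 6 were under 1 M: ZLR replicates 3 and 4, ZFR replicate 3, vehicle replicate 4, and BT2 replicates 1 and 4. In the shallowest rat library 1 read was worth 10.5 normalized counts, so a low rat value can rest on a few reads. The stated sex was matched by Xist, Eif2s3y and Kdm5d. In the mice Xist lay between 12913 and 26291, Ddx3y and Eif2s3y were at 0 and Kdm5d did not exceed 2.70. In the rats Eif2s3y lay between 20.7 and 90.8 and Kdm5d between 10.3 and 180. Ddx3y was also low in the male rats, at 0 to 5.44, so its values do not tell the sexes apart. The hepatocyte markers were abundant in every group, with Alb as the leading gene. Sirt1 was 591 ± 81.2 (SD, n = 5) in WT/Floxed mice with saline and 586 ± 30.6 (n = 4) in L-Sirt1 KO mice with saline. These values come from 2 tables scaled separately, and counts per gene do not show single exons, so they give no comparison between the genotypes and no check of the deletion.

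The oligonucleotides of LNA29 bind the miR-29 family, whose mature strands are printed here because they define what was inhibited. The sequences are from RefSeq (GRCm38.p6), 5′ to 3′, and the capitals mark the seed, bases 2 to 8. They are encoded at chr6:31062673-31062694 (minus strand) for miR-29a, at chr6:31063025-31063047 (minus) and chr1:195037091-195037113 (plus) for miR-29b, and at chr1:195037600-195037621 (plus) for miR-29c.
mmu-miR-29a-3p: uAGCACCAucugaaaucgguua
mmu-miR-29b-3p: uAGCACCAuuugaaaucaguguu
mmu-miR-29c-3p: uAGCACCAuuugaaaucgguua
The 3 strands share 1 seed. Its match, TGGTGCT, was searched on the transcript strand in the longest annotated 3′ UTR of each gene. It was in 0 of the 9 members, whose UTRs were 373 to 4229 bases long, and in 2755 of 21020 genes (13.1%). The same search found it in Col1a1 (1 match), Col3a1 (1), Dnmt3a (5) and Eln (3), which are well-known targets. No match says only that these letters are not in the annotated UTR.

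In the mouse genome (GRCm38) Ghr is at chr15:3317760-3583492 on the minus strand, Stat5a at chr11:100859351-100885169 on the plus strand and Stat5b beside it at chr11:100780731-100850724 on the minus strand. Socs2 is at chr10:95385362-95417180 (minus), Cish at chr9:107296026-107302784 (plus), Bcl6 at chr16:23965052-23988852 (minus), Cux2 at chr5:121856366-122050102 (minus), Hsd3b5 at chr3:98618634-98630252 (minus) and Slco1a1 at chr6:141907282-141946962 (minus). STAT5 binds DNA at the palindrome TTCNNNGAA, which reads the same on both strands. RefSeq promoters (GRCm38.p6, 250 bases before to 50 after a start) were found for 8 of the 9 members, and those of Cish and Bcl6 hold this motif. Over all promoters 2726 of 32851 hold it (8.30%), and 2582 of 27025 genes have at least 1 such promoter (9.55%). The matches with 10 bases on each side are shown because Cish and Bcl6 are a target and an opponent of STAT5, and the capitals mark the motif. The first match of Cish starts at the transcription start and the second 11 bases after it, and those of Bcl6, from its 2 promoters, start 168, 122, 88 and 118 bases before it.
Cish chr9:107296649-107296677 (+): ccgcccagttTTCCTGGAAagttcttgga
Cish chr9:107296660-107296688 (+): tcctggaaagTTCTTGGAAatctgtcaaa
Bcl6 chr16:23981433-23981461 (−): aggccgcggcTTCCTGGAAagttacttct
Bcl6 chr16:23981387-23981415 (−): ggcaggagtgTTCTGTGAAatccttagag
Bcl6 chr16:23981353-23981381 (−): atcgactacgTTCCGGGAAtgagagggct
Bcl6 chr16:23988952-23988980 (−): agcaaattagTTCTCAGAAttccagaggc
A match is a string of letters in this window, not a measured binding site.

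Per kilobase of exon, the level of Ghr was the highest of the 9 in WT/Floxed mice with saline, at 3206 ± 83.8 normalized counts per kb (SD, n = 5). The length was that of all annotated exons of a gene merged over its transcripts, such as 9531 bases for Socs2 and 6419 for Cish. A gene whose main transcript is shorter is set too low, so the order holds for this length only. Slco1a1 (819 ± 457) and Stat5b (810 ± 138) followed and did not differ beyond their spread. Socs2 came next at 284 ± 110, and then Bcl6 (178 ± 230), Stat5a (167 ± 15.9), Cish (161 ± 125), Hsd3b5 (135 ± 147) and Cux2 (73.2 ± 38.2), each of which differed from the next by less than the larger of their SDs. The SD relative to the mean was smaller for the receptor and both STAT5 genes than for the other 6. The SD of normalized counts was 2.62% of the mean for Ghr and 109% for Hsd3b5. In the L-Sirt1 KO mice with saline, Ghr (2633 ± 478 per kb, n = 4) and Stat5b (684 ± 103) led the order by this length, and Hsd3b5 was last at 14.2 ± 9.56.

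**Figure D1:**
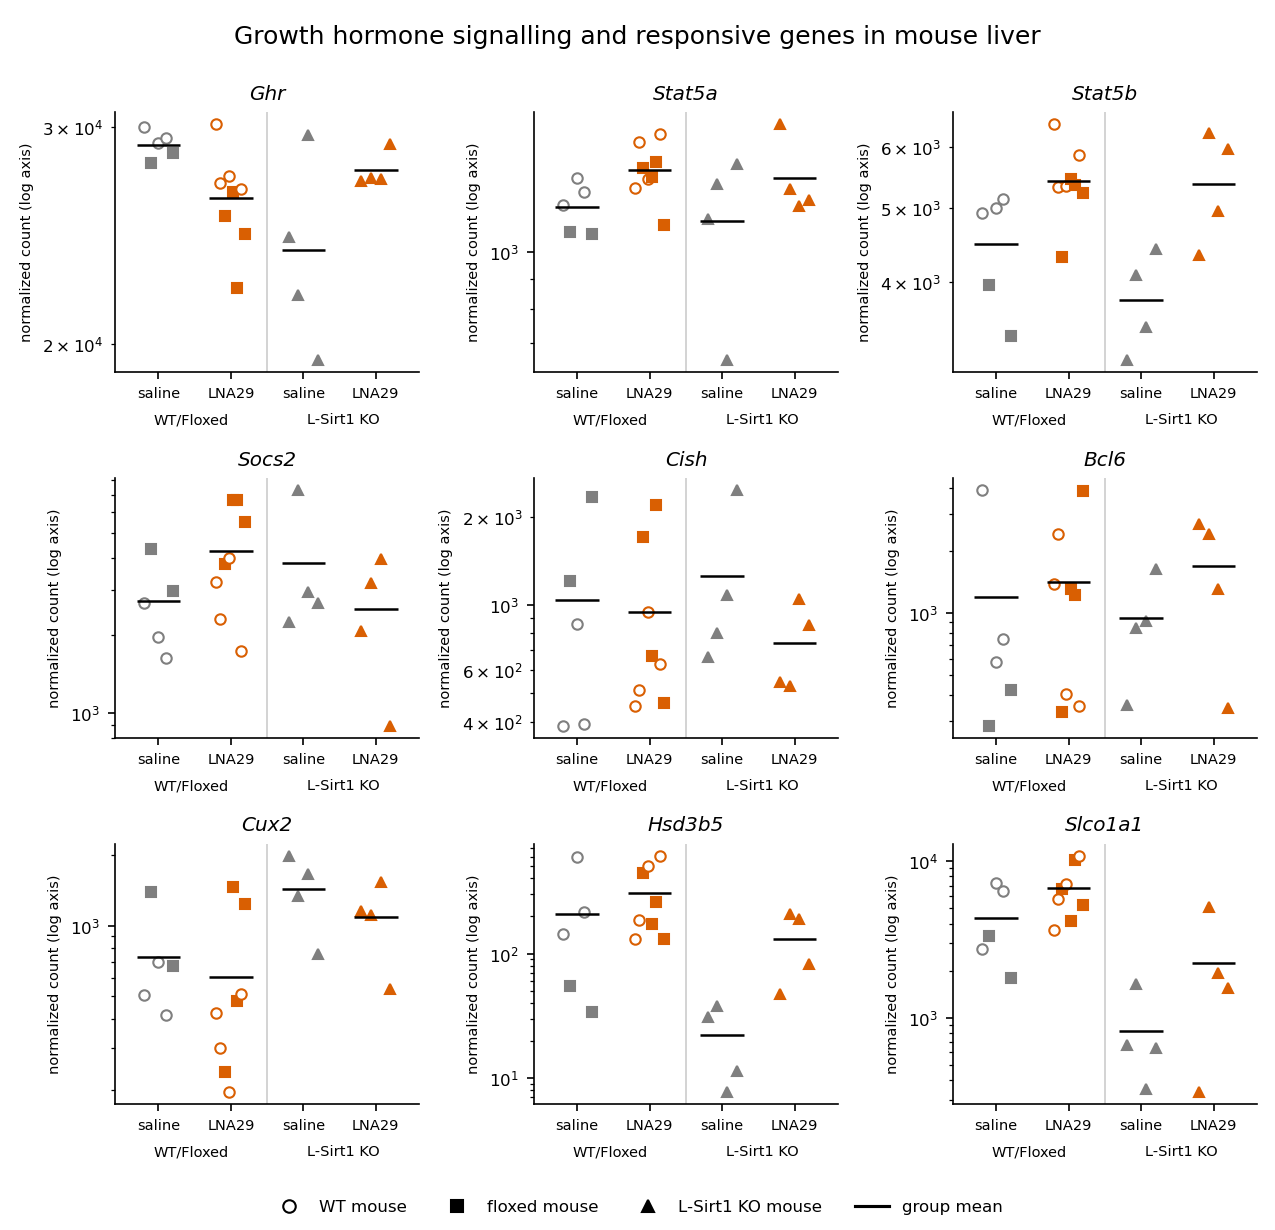
Normalized counts (log axis) of the 9 genes in each mouse, by group, with open circles for WT, squares for floxed and triangles for L-Sirt1 KO mice, grey for saline, orange for LNA29 and a line at the group mean. Hsd3b5 lies between 7.71 and 38.2 in the 4 L-Sirt1 KO mice with saline and between 47.3 and 206 in the 4 with LNA29.

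With LNA29, none of the receptor, transcription factor, feedback inhibitor and transporter genes tested passed the test in either kind of mouse. Slco1a1, Stat5a, Stat5b and Bcl6 had higher means with LNA29 in both kinds, and so did Hsd3b5, which was chosen for this. Genes were tested with limma on log2(normalized count + 1), which understates the change of low genes. A mouse gene was called where p was under 0.05, the Benjamini-Hochberg adjusted p over all genes tested under 0.2, the fold change over 1.2 and the mean normalized count over 50. In WT/Floxed mice 0 of the 8 members tested were called, against 4.35% of the 15811 genes (688), and 4 of the 8 had an unadjusted p under 0.05, as did 2105 of all genes tested. Between these groups 0 of the 8 members were without overlap, against 1.51% of genes. Among L-Sirt1 KO mice 0 of 8 were called, against 1.87% of 15885 genes, and 1 had an unadjusted p under 0.05, as did 1779 of all genes. None of the 8 was without overlap there, against 6.95% of genes.

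Hsd3b5 encodes a hydroxysteroid dehydrogenase of male mouse liver. In the L-Sirt1 KO mice its normalized counts were 31.0, 38.2, 7.71 and 11.4 with saline and 47.3, 206, 189 and 82.5 with LNA29. The groups did not overlap, and the means were 22.1 ± 14.8 and 131 ± 78.3 (SD, n = 4 each), a difference of 2.55 on the log2 scale. Within the 3 sequencing flow cells named in the labels the difference was 2.28, 1.65 and 3.01, each time with 1 or 2 mice per group. In WT/Floxed mice the counts with saline were 144, 595 and 216 in the WT mice and 55.1 and 34.0 in the floxed ones. With LNA29 they were 132, 186, 507 and 609 in WT mice and 442, 174, 258 and 132 in floxed mice. The WT mice overlapped fully, and in the floxed mice every LNA29 value was above both saline values. The log2 difference was accordingly 0.16 within WT, 2.36 within floxed and 1.00 over both (305 ± 187, n = 8, against 209 ± 228, n = 5). Within flow cells it was -1.07 (1 saline mouse), 1.30 and 1.71. Leaving out 1 mouse at a time moved the pooled difference between 0.53 and 1.55, highest without saline replicate 3, a WT mouse. Of the relatives of Hsd3b5, whose reads can be split between near-identical genes, Hsd3b1 differed by 1.69 in WT/Floxed mice (SE 0.39, limma adjusted p = 0.0486) at a mean of 19.3, under the minimum for a call. Hsd3b2 differed by 0.03 there and by 0.77 in the L-Sirt1 KO mice (limma adjusted p = 0.396). All 4 relatives tested were above 0 in the L-Sirt1 KO mice, with a median of 0.66, against -0.003 over all genes. In WT/Floxed mice 2 were above and 2 below 0, with a median of 0.01. None of the 4 was called in either kind of mouse.

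Slco1a1 encodes a transporter that takes up organic anions. In L-Sirt1 KO mice its normalized counts were 667, 1643, 349 and 640.2 with saline and 334, 5129, 1940 and 1550 with LNA29. The lowest value of all came from an LNA29 mouse and the ranges overlapped, so the difference of 1.10 (SE 0.74) was not called (limma adjusted p = 0.631). In WT/Floxed mice saline gave 2762, 6451 and 7290 in WT and 3319 and 1784 in floxed mice, and LNA29 ran from 3657 through a median of 6214 to 10851. The difference was 0.73 (SE 0.34, limma adjusted p = 0.364; exact two-sided permutation p = 0.0878), and it was 0.33 within WT and 1.35 within floxed mice. Its relative Slco1a4, also a transporter gene, went the other way in WT/Floxed mice and was called, with a difference of -0.38 (SE 0.12, limma adjusted p = 0.177).

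**Figure D2:**
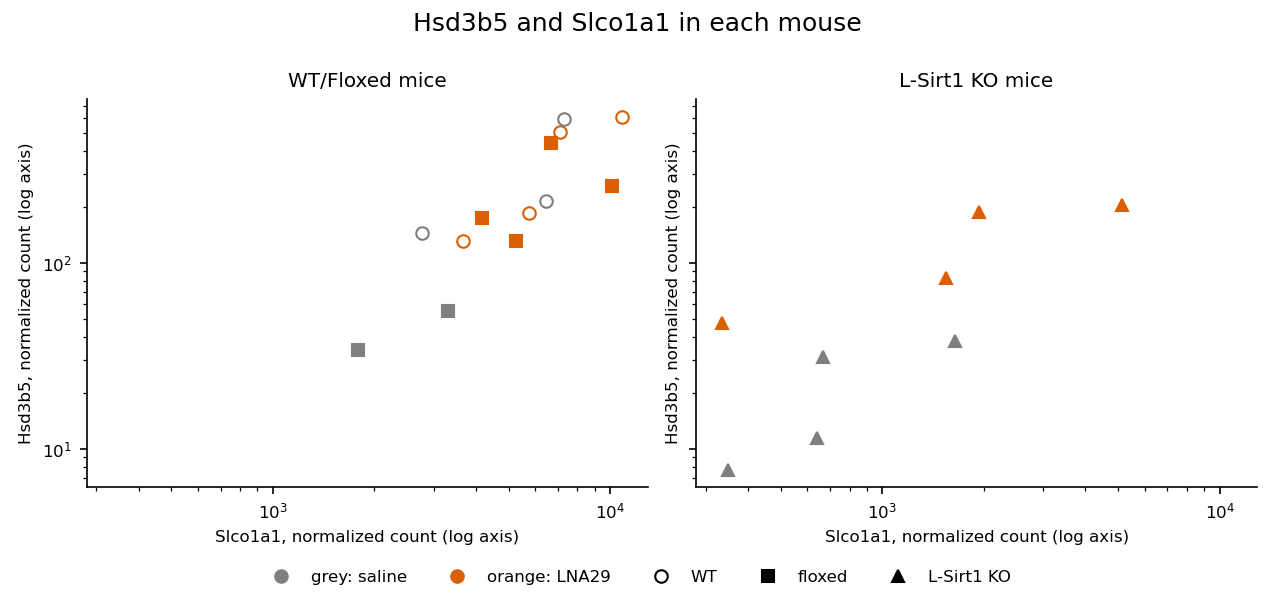
Normalized counts of Hsd3b5 against Slco1a1 (both log axes) in the 13 WT/Floxed and the 8 L-Sirt1 KO mice, each point a mouse. The genes ranked alike across animals, with Spearman's rho of 0.82 and 0.95 after centring on group means.

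Across animals Hsd3b5 and Slco1a1 varied together. After centring each gene's log2 values on its group means, Spearman's rho was 0.82 over the 13 WT/Floxed mice and 0.95 over the 8 L-Sirt1 KO mice, points that share library depth and flow cell. Of all pairs of members this one had the highest rho in both kinds of mouse, so its values are the largest of many. Stat5a had a rho of 0.74 with both Hsd3b5 and Slco1a1 in the WT/Floxed mice. In the L-Sirt1 KO mice it had -0.10 with Hsd3b5 and -0.19 with Slco1a1. The groups pool WT and floxed mice, so differences between these backgrounds remain in the values of the 13. Of 12875 genes compared in the 13 WT/Floxed mice, those most like Slco1a1 were Slc22a28 (rho 0.94), another anion transporter gene, Tnrc6c (0.87), Ankrd11 (0.87), Brf1 (0.86) and Nbea (0.85). In the 8 L-Sirt1 KO mice the same measure was 0.74 for Slc22a28 and -0.50 for Nbea. The genes most like Hsd3b5 were Togaram1 (0.92), Alms1 (0.91), Ndc1 (0.90), Sik2 (0.90) and Tln1 (0.88), with 0.26 for Togaram1 in the L-Sirt1 KO mice. Those most like Socs2 were Ugcg (0.93), a glucosylceramide synthase gene, Praf2 (0.90), Ighmbp2 (0.89), Cyp1a1 (0.88) and Mxd1 (0.87). In the L-Sirt1 KO mice rho was 0.86 for Ugcg and 0.93 for Ighmbp2, but 0.24 for Praf2, 0.05 for Cyp1a1 and 0.19 for Mxd1.

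Stat5b, the main growth hormone effector in liver, came closest to a call. The L-Sirt1 KO mice had normalized counts of 3158, 4089, 3492 and 4417 with saline and 4345, 6271, 4948 and 5963 with LNA29. A single LNA29 mouse lay just below the highest saline mouse, and the difference was 0.50 (SE 0.14, unadjusted p = 0.00615, limma adjusted p = 0.233; exact two-sided permutation p = 0.0571). Without that mouse, LNA29 replicate 1, it was 0.60 and was called (limma adjusted p = 0.158). Saline in WT/Floxed mice gave 4930, 4993 and 5145 in WT and 3959 and 3400 in floxed mice, and LNA29 gave 5331 to 6440 in WT and 4318 to 5453 in floxed mice. The groups overlapped only between backgrounds: within WT and within floxed mice every LNA29 value was above every saline value. The pooled difference was 0.28 (SE 0.11, limma adjusted p = 0.266; exact two-sided permutation p = 0.0295). With the background as a term in the fit it was 0.31 and was called (limma adjusted p = 0.0658), and it was also called without LNA29 replicate 3, a floxed mouse (0.33, limma adjusted p = 0.160).

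Ghr and Stat5a showed small differences. Ghr ran from 28027 to 30011 with saline and from 22206 to 30169 with LNA29 in WT/Floxed mice, a difference of -0.15 (SE 0.07, limma adjusted p = 0.366). Its difference in L-Sirt1 KO mice was 0.23 (SE 0.12, limma adjusted p = 0.530), the opposite sign. Stat5a, the close relative and chromosomal neighbour of Stat5b, differed by 0.21 (SE 0.09, limma adjusted p = 0.341) and 0.29 (SE 0.23, limma adjusted p = 0.675).

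The feedback inhibitors and regulators varied widely between animals of a group. Socs2 ran from 1633 to 4323 with saline and from 1734 to 6704 with LNA29 in WT/Floxed mice (0.59, SE 0.32, limma adjusted p = 0.475). The L-Sirt1 KO mice differed by -0.62 (SE 0.48, limma adjusted p = 0.679). Cish differed by -0.04 (SE 0.48) and -0.62 (SE 0.39), Bcl6 by 0.46 (SE 0.68) and 0.67 (SE 0.64) and Cux2 by -0.50 (SE 0.46) and -0.42 (SE 0.35). None of these 3 had a limma adjusted p under 0.6 in either comparison. For Bcl6 a single saline mouse at 3939, against 283 to 748 in the other 4, set much of the spread, and without it the difference in WT/Floxed mice was 1.06.

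Whether the response to LNA29 differed between the genotypes was tested as an interaction over the 15601 genes tested in both tables. It was called at an adjusted p under 0.2 for 0 of the 8 members, against 0.0449% of genes (7), and 1 of the 8 had an unadjusted p under 0.05, as did 1426 of all genes. That was Ghr, with a difference of -0.38 (SE 0.13, limma adjusted p = 0.364), lower in WT/Floxed than in L-Sirt1 KO mice. It was called without L-Sirt1 KO saline replicate 3 (-0.49, limma adjusted p = 0.111). For Hsd3b5, given without a test, the log2 response of 2.55 in the L-Sirt1 KO mice stood beside 2.36 in their floxed littermates and 0.16 in the younger WT mice, so the pooled WT/Floxed response was 1.55 lower. For Ghr the responses were -0.20 in floxed and -0.09 in WT mice.

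The rest of the pathway was described by 18 other genes, among them the kinase Jak2, the secreted product Igf1, its binding partner Igfals, and further SOCS and STAT genes. In WT/Floxed mice 0 of 18 rose and 1 fell with LNA29. In L-Sirt1 KO mice 1 of 18 rose and 0 fell. This was Irs2, an insulin receptor substrate, at 2703 ± 211 against 1481 ± 520 (SD, n = 4 each; 0.94, SE 0.23, limma adjusted p = 0.165), and in WT/Floxed mice its difference was 0.87 (limma adjusted p = 0.207). The call of Irs2 was lost without any of the 4 LNA29 mice or without saline replicate 3, and with flow cell as a term. Igf1 differed by 0.11 and 0.23, Igfals by -0.11 and 0.02 and Jak2 by -0.10 and 0.03, with limma adjusted p-values of 0.576 and above.

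The wider sex-biased genes of mouse liver, read beside Hsd3b5 and Slco1a1, moved in part. With LNA29, 3 of 15 male-biased genes of WT/Floxed mice rose and 1 fell, and the list median was 0.18, against 0.00 over all genes. Serpina1e, a protease inhibitor gene, rose by 1.56 (SE 0.49, limma adjusted p = 0.159), Cyp2d9, a steroid hydroxylase gene, by 0.81 (SE 0.13, limma adjusted p = 0.00632) and the urinary protein gene Mup20 by 0.59 (SE 0.15, limma adjusted p = 0.0790), while Mup3 fell by 0.40 (SE 0.12, limma adjusted p = 0.155). Of 18 female-biased genes 0 rose and 3 fell, with 16 below 0 and a median of -0.85. The 3 were the sulfotransferase genes Sult3a2 (-1.88, SE 0.25) and Sult3a1 (-0.82, SE 0.12) and the cytochrome gene Cyp3a44 (-1.63, SE 0.32). In L-Sirt1 KO mice 2 of 14 male-biased genes rose, Serpina1e (2.24, SE 0.43, limma adjusted p = 0.0881) and Selenbp2 (1.60, SE 0.24, limma adjusted p = 0.0353). The other 12 were not called, and the list median was 0.02, with 8 above and 6 below 0. Of 18 female-biased genes 1 fell, the thioesterase gene Acot3 (-1.31, SE 0.34, limma adjusted p = 0.192), and the median was 0.24, with 12 above and 6 below 0 and 7 at an unadjusted p under 0.05. The furthest from 0 were Cyp3a16 (3.29, SE 1.09, limma adjusted p = 0.2996) and Cyp3a41a (2.70, SE 0.95, limma adjusted p = 0.326), and Cyp3a41a differed by -2.66 in WT/Floxed mice (SE 1.09, limma adjusted p = 0.295). The difference between the genotypes was -5.36 for Cyp3a41a and -4.94 for Cyp3a16 (limma adjusted p = 0.345 and 0.364). Of the 18 female-biased genes 1 had a response that differed between the genotypes, Cyp3a44 (-2.59, SE 0.49, limma adjusted p = 0.144). Leaving out 1 mouse at a time kept the calls of Cyp2d9, Mup20, Sult3a1, Sult3a2 and Cyp3a44 in WT/Floxed mice and of Selenbp2 in L-Sirt1 KO mice. That of Serpina1e held in 6 of 13 such fits in WT/Floxed mice and was lost without LNA29 replicate 3 in L-Sirt1 KO mice, those of Mup3 and the Slco1a1 relative Slco1a4 held in 4 of 13, that of Acot3 in 2 of 8 and that of Cyp3a44 between genotypes in 15 of 21. With flow cell as a term the calls of Slco1a4 in WT/Floxed mice and of Serpina1e and Acot3 in L-Sirt1 KO mice were lost, and with no minimum mean those of Serpina1e, Mup3 and Slco1a4 in WT/Floxed mice and of Acot3 in L-Sirt1 KO mice. The Serpina1, Mup, Cyp3a and Sult genes each have near-identical relatives that can share reads.

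**Figure D3:**
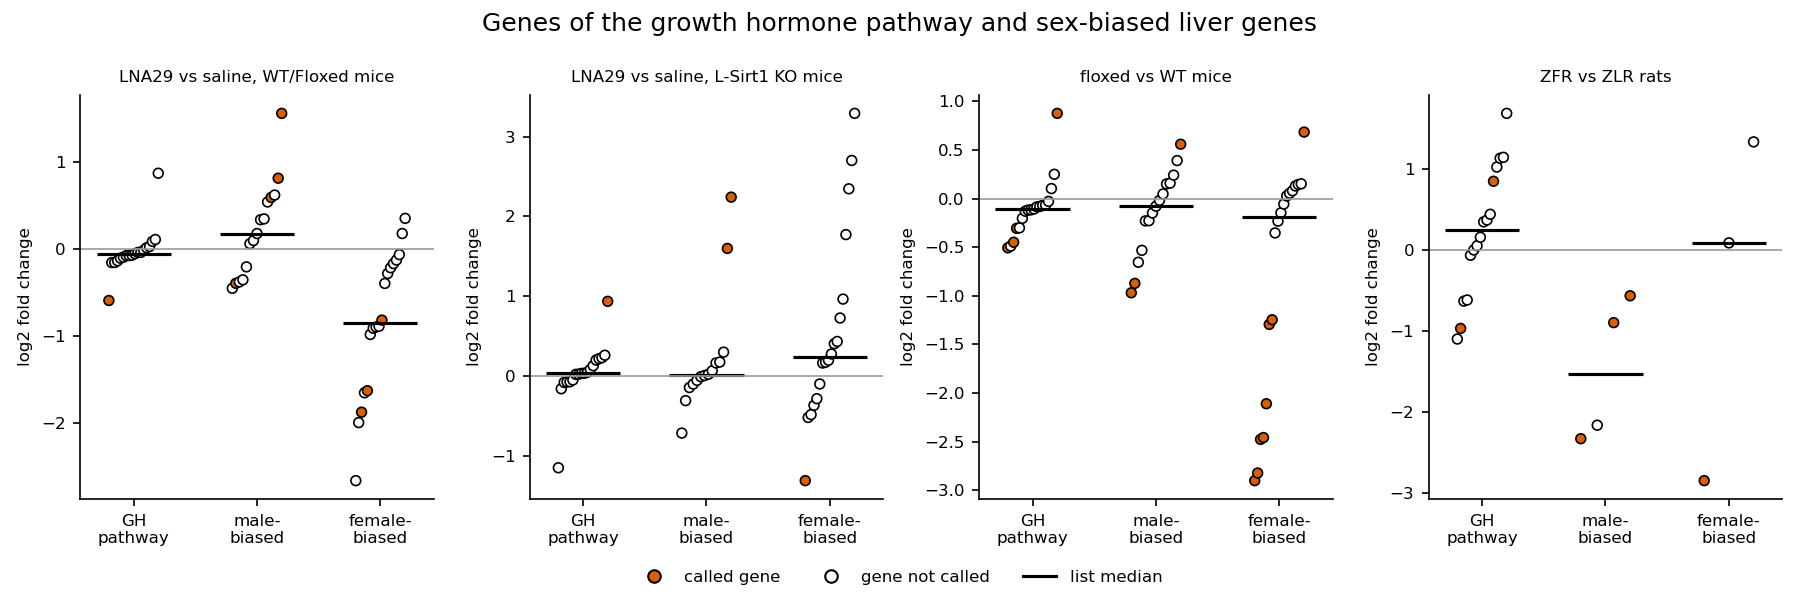
Log2 fold changes of the genes of the growth hormone (GH) pathway other than the 9 and of male- and female-biased liver genes in 4 comparisons, each point a gene, orange where called, with a line at the list median. In WT/Floxed mice with LNA29, 16 of 18 female-biased genes lie below 0, with a median of -0.85, and in L-Sirt1 KO mice 12 of the 18 lie above 0, with a median of 0.24.

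Other marker genes that moved with LNA29 are given because liver was measured as a whole, and fewer cells of a type and less RNA per cell cannot be told apart. The 9 hepatocyte markers measured summed to 6957720 ± 550172 with LNA29 and 6556740 ± 1084990 with saline in WT/Floxed mice (SD, n = 8 and 5), with Alb leading. Of these 9, Apoa1, an apolipoprotein gene, rose by 0.51 (SE 0.11, limma adjusted p = 0.0312) and Tat, the tyrosine aminotransferase gene, fell by 0.48 (SE 0.13, limma adjusted p = 0.0993), while 0 were called in L-Sirt1 KO mice (Apoa1 -0.07, Tat 0.42). The 10 Kupffer cell and macrophage markers summed to 23456 ± 14797 and 23914 ± 4690, none was called, and their leading gene was Lyz2. The sum was 56285 in LNA29 replicate 4 and 10536 to 26649 in the other 7 LNA29 mice, against 17553 to 28677 with saline, and 8 of the 10 genes had differences below 0, with a median of -0.32. Of these 10 genes, 2 fell in L-Sirt1 KO mice, Vsig4 (-0.54) and Clec4f (-0.29), with calls that held in 5 and 1 of the 8 fits without 1 mouse, and the list summed to 20584 ± 2847 with LNA29 against 22851 ± 1523 with saline. In those mice 8 of the 10 were below 0, with a median of -0.27, and 6 had an unadjusted p under 0.05. The endothelial gene Lyve1, 1 of 8 endothelial markers, fell by 0.51 in WT/Floxed mice (SE 0.16, limma adjusted p = 0.165) and by 1.17 in L-Sirt1 KO mice (SE 0.25, limma adjusted p = 0.115), and these calls held in 7 of 13 and 6 of 8 fits without 1 mouse. The 8 endothelial markers, led by Clec4g, summed to 11977 ± 3088 with LNA29 and 12604 ± 2041 with saline in WT/Floxed mice, and to 12587 ± 570 and 13051 ± 754 in L-Sirt1 KO mice. The 6 cholangiocyte markers, led by Spp1, summed to 4480 ± 978 with LNA29 and 3613 ± 493 with saline in WT/Floxed mice. All 6 differences were above 0 there (median 0.29), against 3 above and 3 below 0 in L-Sirt1 KO mice. Of 10 lymphocyte markers 9 were below 0 in WT/Floxed mice (median -0.14) and 7 in L-Sirt1 KO mice. No gene of these 2 lists was called in either kind of mouse. Of 10 acute phase genes 5 fell in WT/Floxed mice, led by Saa2 (-1.48, SE 0.21) and Lcn2 (-1.02, SE 0.17), and 0 were called in L-Sirt1 KO mice, where Saa2 differed by -1.44 (SE 0.49, limma adjusted p = 0.312) and Lcn2 by -1.33 (SE 0.56, limma adjusted p = 0.421), 8 of the 10 were below 0 and 4 had an unadjusted p under 0.05. For the difference between genotypes 0 of the 10 were called. The fasting hormone gene Fgf21 rose by 1.90 in WT/Floxed mice (SE 0.62, limma adjusted p = 0.171), the only call among 8 fasting genes there, and this call held in 4 of the 13 fits without 1 mouse. In L-Sirt1 KO mice Fgf21 differed by -2.51 (SE 0.74, limma adjusted p = 0.247), and its difference between the genotypes was 4.41 (SE 1.05, limma adjusted p = 0.231). The glucose-6-phosphatase gene G6pc was the fasting gene called there (0.75, SE 0.12, limma adjusted p = 0.0538), in all 8 fits without 1 mouse, and it differed by 0.86 in WT/Floxed mice (SE 0.43, limma adjusted p = 0.413). Of the 8 fasting genes 7 were above 0 in WT/Floxed mice, with a median of 0.71, and 1 had an unadjusted p under 0.05. Among L-Sirt1 KO mice 3 were above and 5 below 0, with a median of -0.17, and 4 had an unadjusted p under 0.05. Of 12 liver transcription factor genes 1 rose in WT/Floxed mice, Foxa3 (0.73, SE 0.18, limma adjusted p = 0.0688), called in all 13 fits without 1 mouse, and 1 fell in L-Sirt1 KO mice, Cebpa (-0.49, SE 0.12, limma adjusted p = 0.181), called in 2 of 8 such fits and neither with flow cell as a term nor with no minimum mean. None of 12 clock genes was called in either kind of mouse, though 6 had an unadjusted p under 0.05 in L-Sirt1 KO mice, and Dbp differed by -3.04 there (SE 1.02, limma adjusted p = 0.302) and by -1.12 in WT/Floxed mice (limma adjusted p = 0.537). With flow cell as a term the calls of Fgf21 in WT/Floxed mice, of Vsig4 and Clec4f in L-Sirt1 KO mice and of Lyve1 in both were lost, and with no minimum mean those of Fgf21 and Lyve1 in WT/Floxed mice and of Clec4f in L-Sirt1 KO mice. The part of these genes in the values of the 9 members was not tested.

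Within the pooled WT/Floxed mice, growth hormone genes differed between the backgrounds of the animals. With treatment as a term in the fit, 4 of the 8 members other than Hsd3b5 were called between floxed and WT mice, against 14.7% of the 15811 genes (1148 higher and 1183 lower in floxed mice). Socs2, Cish and Cux2 were higher in floxed mice, and Stat5b lower. Hsd3b5 is described here without a test, because the floxed mice with saline also enter the contrast it was chosen on. Floxed mice were older than WT mice, so background and age cannot be told apart, and the study was run at 2 sites.

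Socs2 had the lowest adjusted p of these calls. With saline it was 2657, 1970 and 1633 in WT mice and 4323 and 2964 in floxed mice. With LNA29 it was 3217, 2306, 3993 and 1734 in WT mice and 3786, 6698, 6704 and 5506 in floxed mice. With saline both floxed mice were above all WT mice, and with LNA29 a single floxed mouse fell within the WT range. The means over both treatments were 4997 ± 1557 (SD, n = 6) in floxed and 2501 ± 859 (n = 7) in WT mice, and the fitted difference was 0.96 (SE 0.20, limma adjusted p = 0.0227). It was called in all 13 fits that left out 1 mouse, with differences of 0.83 to 1.06.

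Cish, the second feedback inhibitor, was 385, 864 and 392 in WT and 1208 and 2334 in floxed mice with saline, without overlap. With LNA29 it was 452, 514, 947 and 628 in WT and 1709, 671, 2189 and 464 in floxed mice, with overlap. The difference was 1.13 (SE 0.37, limma adjusted p = 0.0842), and the call was lost without saline replicate 5, a floxed mouse (0.90, limma adjusted p = 0.227). Cux2, a repressor higher in females, was 914 ± 519 in floxed and 436 ± 161 in WT mice (0.95, SE 0.39, limma adjusted p = 0.142). Stat5b was 4620 ± 853 in floxed and 5436 ± 540 in WT mice (-0.28, SE 0.08, limma adjusted p = 0.0530). The direction of both differences held without any single mouse, but their calls did not. That of Stat5b was lost without LNA29 replicate 1 or 3 or saline replicate 4 or 5, and that of Cux2 without LNA29 replicate 4, 5 or 8 or saline replicate 2 or 4. The highest limma adjusted p among these fits was 0.277 for Cux2, and for Stat5b, up to 0.147, the fold change dropped under 1.2. Hsd3b5 was 183 ± 151 in floxed and 341 ± 218 in WT mice, a fitted difference of -1.21.

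The 4 other members were not called between backgrounds. Ghr (-0.13, limma adjusted p = 0.163) and Stat5a (-0.17, limma adjusted p = 0.194) stayed under the fold change of 1.2. Slco1a1 differed by -0.41 (SE 0.32, limma adjusted p = 0.444) and Bcl6 by -0.34 (SE 0.68, limma adjusted p = 0.786).

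Of the 18 other pathway genes 1 was higher in floxed mice, the feedback inhibitor gene Socs3 (0.87, SE 0.34, limma adjusted p = 0.130). A further 3 were lower: the adaptor gene Irs1 (-0.51), Stat3 (-0.45), the main interleukin-6 effector, and the IGF-binding protein gene Igfbp3 (-0.31). Of 18 female-biased genes 1 was higher (Cyp2a4, 0.68) and 7 were lower, led by Cyp3a41b (-2.90, SE 0.76) and Cyp3a41a (-2.82, SE 0.80). Of 15 male-biased genes 1 was higher (Gstp1, 0.56) and 2 were lower, Selenbp2 (-0.97) and Elovl3 (-0.87). Of 8 fasting genes 6 were lower in floxed mice, led by Angptl4 (-1.93, SE 0.40), an inhibitor of lipoprotein lipase, and the gluconeogenic Pck1 (-1.08, SE 0.36). Of 12 liver transcription factor genes 2 were higher, Onecut1 (0.97, SE 0.28) and Trim24 (0.48, SE 0.12). The calls of Irs1, Onecut1, Trim24, Cyp2a4, both Cyp3a41 genes, Gstp1, Selenbp2 and Angptl4 held without any 1 mouse. Those of Pck1 and Elovl3 were lost without saline replicate 5 and that of Igfbp3 without saline replicate 2, and those of Socs3 and Stat3 held in 7 and 6 of the 13 fits. The part of feeding state in the Socs2 and Cish values was not tested.

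In the obese rats, both feedback inhibitors and Hsd3b5 were lower than in lean rats. Rat genes were taken by name, and whether the rat genes named Hsd3b5 and Slco1a1 are the direct counterparts of the male-biased mouse genes was not tested. Rats were called at an adjusted p under 0.05. Of the 8 members above the minimum mean of 10 normalized counts, 3 were called between ZFR and ZLR and all were lower in ZFR, against 4.25% of 8633 genes (155 higher and 212 lower). The same 3 were the members whose groups did not overlap, against 14.5% of genes. The smallest p of the exact two-sided permutation test with 4 against 4 libraries is 0.0286, and each of the 3 reached it. The median over the 8 members was -0.63, and over all genes 0.07.

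Socs2 was 39.7, 179, 137 and 198 normalized counts in ZLR and 10.97, 7.06, 6.27 and 4.67 in ZFR. Every ZFR value was well below every ZLR value, although ZFR replicates 2 to 4 rested on about 6, 3 and 3 reads and ZLR replicates 3 and 4 on about 13 and 19. The difference was -3.91 (SE 0.49, limma adjusted p = 0.00211). It was -3.12 and -4.69 within the 2 flow cells and -3.39 without the 3 libraries under 1 M reads (limma adjusted p = 0.0223).

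Hsd3b5 was the best-sampled of the 3, at 1755, 1425, 1322 and 1468 in ZLR and 502, 711, 952 and 695 in ZFR. The lowest ZLR rat was above the highest ZFR rat, and the means were 1493 ± 186 and 715 ± 184 (SD, n = 4 each). The difference was -1.09 (SE 0.18, limma adjusted p = 0.00768), with -1.40 and -0.78 within the flow cells and -1.33 without the libraries under 1 M reads (limma adjusted p = 0.0104).

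Cish was 70.2, 201, 63.2 and 157 in ZLR and 44.7, 7.06, 12.5 and 14.0 in ZFR. The ranges came close, with 44.7 in a deep ZFR library and 63.2 in a shallow ZLR one. The difference was -2.73 (SE 0.55, limma adjusted p = 0.0223), with -2.64 and -2.82 within the flow cells. The call was lost without ZLR replicate 2 or 4 or ZFR replicate 2, 3 or 4 (limma adjusted p of 0.0534 to 0.0786). In these fits the difference stayed at -2.39 to -2.68. Without the libraries under 1 M reads it was -2.76 and not called (limma adjusted p = 0.0762), when 2 of the 8 members were called.

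The receptor gene was not called. Ghr was 871, 906, 826 and 859 in ZLR and 758, 659, 986 and 861 in ZFR, with overlap and a difference of -0.10 (SE 0.12, limma adjusted p = 0.6998). Stat5b differed by -0.69 (SE 0.33, limma adjusted p = 0.333) at 52.8 ± 15.5 in ZLR and 33.7 ± 13.5 in ZFR. Stat5a (10.3 ± 7.52 and 12.4 ± 2.88) and Bcl6 (25.2 ± 20.7 and 8.49 ± 1.88) were near the level of a few reads in the shallow libraries and were not called. Bcl6 was called without ZLR replicate 3, which held 0 reads of it (-1.77, limma adjusted p = 0.0486). Slco1a1 was 332, 198, 94.8 and 188 in ZLR and 105, 83.5, 171 and 157 in ZFR. The groups overlapped, with a difference of -0.58 (SE 0.36, limma adjusted p = 0.465), and the sign was not the same within the flow cells (-1.45 and 0.29). The flow cell with 0.29 holds all 3 libraries under 1 M reads, among them both of its ZLR libraries. Without these 3 the difference was -1.20 (limma adjusted p = 0.0712), without ZLR replicate 1 it was -0.30 and without ZLR replicate 3 it was -0.89, and it was not called in any of these fits. Cux2 was under the minimum mean and was not tested. It had 0 to 5.61 normalized counts in ZLR and 0 to 10.6 in ZFR.

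**Figure D4:**
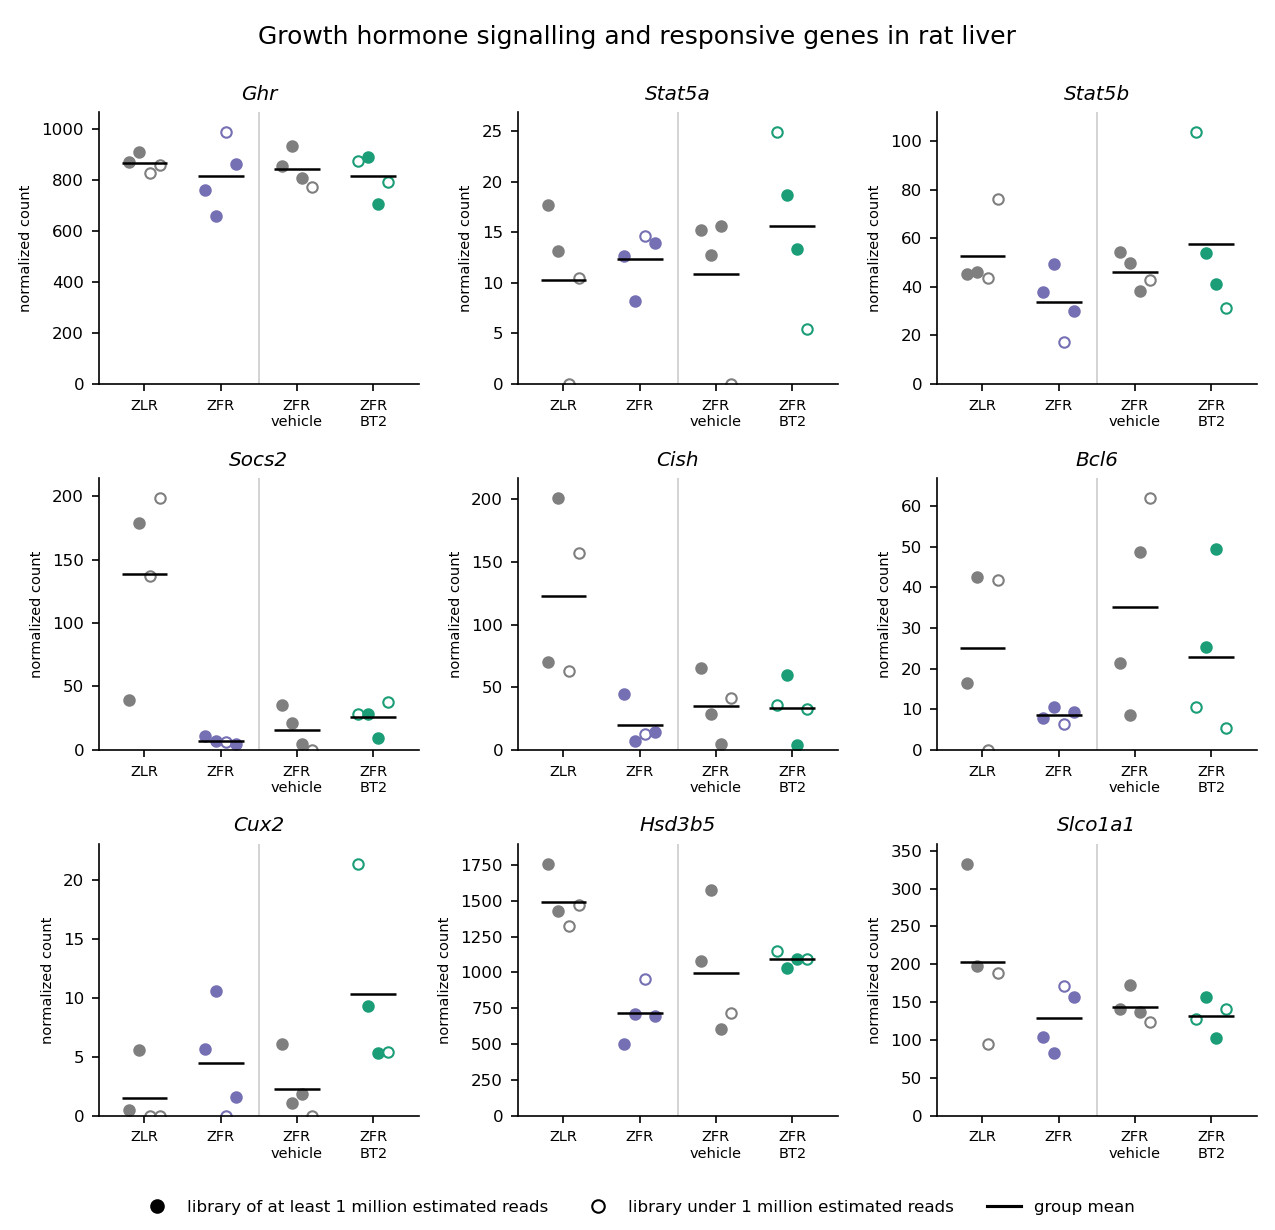
Normalized counts of the 9 genes in each rat, by group, with open points for libraries under 1 M estimated reads and a line at the group mean; the 2 sides of each panel come from tables scaled separately. Socs2 lies between 39.7 and 198 in ZLR and between 4.67 and 10.97 in ZFR.

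Among 16 other pathway genes tested, 1 was lower and 1 higher in ZFR. Igf1, the main secreted product of growth hormone action in liver, was 547 ± 63.5 in ZFR and 1079 ± 184 in ZLR (SD, n = 4 each), a difference of -0.97 (SE 0.14, limma adjusted p = 0.00402). Stat3 was 330 ± 12.1 and 184 ± 18.9 (0.85, SE 0.11, limma adjusted p = 0.00231). Igfals, which carries IGF1 in serum, differed by -0.62 (limma adjusted p = 0.0848) without overlap, and Jak2 by 1.02 (limma adjusted p = 0.637). The calls of Igf1 and Stat3 held without any 1 rat.

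Of 4 male-biased rat genes tested, 3 were lower in ZFR. The testosterone hydroxylase gene Cyp2c11 was 870 ± 623 in ZFR and 3778 ± 465 in ZLR (-2.33, SE 0.36, limma adjusted p = 0.00590), and Cyp2c13 (-0.90, SE 0.18) and Rup2 (-0.57, SE 0.10) were lower too, while Cyp3a2 differed by -2.17 (limma adjusted p = 0.152). Of 3 rat genes listed as female-biased 1 was called, Fmo1, and it was lower in ZFR (-2.85, SE 0.43). Cyp2c12 differed by 1.33 (limma adjusted p = 0.294) and Srd5a1 by 0.09 (limma adjusted p = 0.928). All rats were male, so the sex bias of the listed genes, among them Fmo1, could not be checked. The relative of Slco1a1, Slco1a4, was lower as well (-2.35, SE 0.23, limma adjusted p = 0.000568). Of 10 liver transcription factors tested, 3 were lower, Hhex (-2.04), Foxa1 (-1.67) and the xenobiotic receptor gene Nr1i3 (-1.63). The calls of Cyp2c11, Rup2, Fmo1, Slco1a4 and Hhex held without any 1 rat, that of Cyp2c13 in 3, of Foxa1 in 3 and of Nr1i3 in 1 of the 8 fits, and those of Cyp2c13, Rup2, Foxa1 and Nr1i3 were lost without the libraries under 1 M reads and with no minimum mean. With flow cell as a term those of Foxa1 and Nr1i3 were lost, and with TMM scaling those of Rup2 and Nr1i3.

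Several other groups moved between ZFR and ZLR, and their part in the values above was not tested. Of 11 clock genes 4 were higher and 2 lower, among them Dbp (5.01, SE 0.85) and Per3 (4.30, SE 0.84) against Npas2 (-3.65, SE 0.69) and Arntl (-2.46, SE 0.46). The calls of Dbp, Lcn2 and Orm1 held without any 1 rat, that of Per3 was lost without any of the 4 ZFR rats, that of Npas2 without ZLR replicate 1 and that of Arntl without ZFR replicate 2. With no minimum mean those of Per3, Npas2 and Arntl were lost, and that of Npas2 also without the libraries under 1 M reads. Of 6 acute phase genes 3 were higher and 2 lower, led by Lcn2 (5.66, SE 0.65) and Orm1 (2.12, SE 0.21). The calls of the other 3, Hp (0.48) and the fibrinogen genes Fga (-0.60) and Fgb (-0.53), held in 2 of the 8 fits each, and were lost without the libraries under 1 M reads, with TMM scaling and with no minimum mean. The 10 hepatocyte markers summed to 310205 ± 37915 in ZFR and 314741 ± 29030 in ZLR, and 1 was higher and 2 were lower. The calls of these 3, Tf (0.44), Cps1 (-0.58) and Ttr (-0.43), held in 5, 2 and 1 of the 8 fits and were lost under the same 3 settings. The 10 lymphocyte markers, led by Cd4, summed to 68.6 ± 11.4 against 38.6 ± 11.9 without overlap, with 0 of 2 tested genes called. The 10 Kupffer cell and macrophage markers, led by Clec4f, summed to 874 ± 153 and 749 ± 70.4, with 0 of 9 called. Of 7 endothelial markers 1 was called, the scavenger receptor gene Stab2 (1.16, SE 0.25, limma adjusted p = 0.0330), in 3 of the 8 fits without 1 rat, and not without the libraries under 1 M reads, with flow cell as a term or with TMM scaling. The endothelial sum was 450 ± 69.7 against 425 ± 37.2. The 2 red blood cell markers, led by Hbb, summed to 680.5 ± 253 in ZFR and 294 ± 137 in ZLR with overlap, and the 1 tested was not called.

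By the same rule no gene of the rat liver was called with BT2. Of the 8 members tested 0 were called, against 0% of the 8405 genes by limma, and 332 genes, none of them a member, had an unadjusted p under 0.05. None of the 8 was without overlap, against 2.96% of genes. Socs2 was 35.3, 21.5, 4.58 and 0 with vehicle and 28.5, 28.0, 9.37 and 38.1 with BT2. The vehicle library at 0 was the shallowest, in which 1 read was worth 10.3 normalized counts, and the difference of 1.56 (SE 0.99) had a limma adjusted p of 0.898. Hsd3b5 was 1079, 1576, 607 and 718 with vehicle and 1147, 1033, 1096 and 1092 with BT2, so the BT2 rats lay within the wider range of the vehicle rats (0.23, SE 0.25, limma adjusted p = 0.907). Ghr (-0.05, SE 0.12) and Slco1a1 (-0.12, SE 0.18) had the narrowest errors. Stat5b (0.17, SE 0.33), Stat5a (0.92, SE 0.93), Cish (-0.08, SE 0.86) and Bcl6 (-0.68, SE 0.72) had wide ones. Cux2 was under the minimum mean and was not tested by limma. It was 10.4 ± 7.55 with BT2 and 2.26 ± 2.66 with vehicle, with overlap, a level of few reads. The difference was 1.95 (exact two-sided permutation p = 0.0857), and 1.97 and 1.93 within the flow cells.

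Of the 16 other pathway genes 0 were called with BT2, and Igf1 was 898 ± 55.7 against 779 ± 58.9 with vehicle (SD, n = 4 each; 0.21, SE 0.11, limma adjusted p = 0.898). Differences were above 0 for 15 of the 16, with a median of 0.28, against 0.006 over all genes. Socs3 was furthest from 0 (2.14, SE 0.99, limma adjusted p = 0.898), and 0 of the 16 had an unadjusted p under 0.05. The male-biased Cyp2c11 differed by -0.80 (SE 0.45, limma adjusted p = 0.898).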

How the data were processed

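Liver RNA of 21 mice and 16 rats was sequenced from poly(A)-selected single-end libraries of 100 bases. The authors aligned reads with STAR to mm10 or rn6, estimated counts with Salmon and normalized each table with DESeq2. The deposited values are these normalized counts, a signal in 4 tables scaled separately. Entries without a name (381 in mice, 201 in rats) or with a repeated name (130 and 4523) were left out. Read depth was estimated from the value of 1 read. Since 69.3% to 75.8% of low values in mice and 74.3% to 90.3% in rats were whole multiples of it (tolerance 0.01), reads were not recovered and no count model was run.

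Genes with a mean of at least 10 were tested with limma 3.58.1 (R 4.3.3, trend) on log2(normalized count + 1). The test was also run on simulated data with set changes, but no recovery rate is given here. That run therefore does not show how often differences as small, or genes as low, as those of the members would be called. Single members had exact permutation tests (scipy 1.17.1), 34 in all, unadjusted. Each library came from 1 animal. The named genes were all members, Igf1, Igfals and Jak2, called pathway genes (values of 1 are not reported here), relatives, sex-chromosome genes, up to 2 genes with the largest change of each list (not all are printed) and the 5 genes most alike. Members and lists were chosen with earlier results of these data known. Alternatives were another pseudocount, TMM scaling, no minimum mean, sample quality weights, covariates, a replicate block, other call rules and leaving out libraries. UTRs came from the GRCm38 annotation.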

Additional observations from a re-analysis of the deposited data

Results flagged for a closer look

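Of 72 sets of values of 1 gene in 1 group of 4 to 10 libraries, 6 held a library far from the others by Dixon's criterion at 95%, where chance alone gives about 1 in 20. In WT/Floxed mice with saline, Bcl6 was 3939 in replicate 1 (next 748) and Cux2 was 1396 in replicate 2 (next 698). Among L-Sirt1 KO mice Ghr was 29038 in LNA29 replicate 4 (next 27295), and Socs2 was 7324 in saline replicate 2 (next 2952). In ZLR rats Stat5b was 76.0 in replicate 4 (next 46.2), a library of 0.189 M reads (1 M is 1000000), and Cux2 was 5.61 in replicate 2 (next 0.46).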

How the results depend on the processing

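Depth was low in the rats, where 6 of 16 libraries held under 1000000 reads, and without those the genes called between ZFR and ZLR were 442 in place of 367. Socs2 and Hsd3b5 in ZFR against ZLR kept direction and call under all 16 alternatives, and Socs2 between backgrounds under all 19. Cish in ZFR against ZLR kept its direction but not its call (-2.73, limma adjusted p = 0.0830 with no minimum mean). The cause was not tested for the changes below.

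Genes called with LNA29 in WT/Floxed mice were 688, and 396 with no minimum mean, 1308 with sample quality weights and 206 at an adjusted p under 0.05. In L-Sirt1 KO mice they were 297, and 160, 804 and 37 under the same settings and 103 with flow cell as a term. For the interaction they were 7, and 1220 with weights, 19 with flow cell and 0 at 0.05. Between backgrounds they were 2331, and 766 at 0.05. Between ZFR and ZLR they were 367, and 241 with no minimum mean, 1169 with weights and 707 by the mouse rule. With BT2 they were 0, and 1 with a pseudocount of 10, with weights or by the mouse rule and 2 without shallow libraries. Leaving out 1 library gave 381 to 1006, 77 to 426, 0 to 233, 1409 to 2751, 225 to 379 and 0 to 2 genes.

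Members called were 0 with LNA29 in WT/Floxed mice and 1 with background as a term (Stat5b). They were 0 in L-Sirt1 KO mice and 1 with weights (Stat5b), and 0 for the interaction and 1 with weights (Ghr). Between backgrounds they were 4, and 1 at 0.05 (Socs2). Between ZFR and ZLR they were 3, and 5 with weights, which added Bcl6 (-1.74) and Slco1a1 (-0.98). Leaving out 1 library gave 0 to 1 for each LNA29 comparison and the interaction, 2 to 4 between backgrounds, 2 to 4 between ZFR and ZLR and 0 to 0 with BT2.

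Replicate numbers are shared by the groups, but same-numbered libraries did not deviate together: the correlations were -0.28 to 0.24 in WT/Floxed mice, -0.08 to 0.19 in L-Sirt1 KO mice, -0.03 to 0.03 in ZFR and ZLR and -0.02 to 0.15 with BT2. With a replicate block the genes called were 56, 145, 0 (interaction), 221 and 0, and the members 0, 1 (Stat5b, limma adjusted p = 0.115), 0, 2 (without Cish, limma adjusted p = 0.0803) and 0.

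The sign of uncalled members turned with sample quality weights for Cish with LNA29 in WT/Floxed mice (0.34), for Stat5a, Bcl6 and Cux2 in the interaction (0.025, 0.018 and 0.23), for Bcl6 between backgrounds (0.051), for Stat5a in ZFR (-0.11) and for Cish, Bcl6 and Hsd3b5 with BT2 (0.19, 0.061 and -0.051). Without shallow libraries it turned for Stat5a in ZFR (-0.40) and Bcl6 with BT2 (0.74). Leaving out 1 library gave Cish in WT/Floxed mice -0.31 to 0.34, and in the interaction Stat5a -0.22 to 0.16, Bcl6 -0.85 to 0.40, Cux2 -0.39 to 0.19 and Slco1a1 -1.09 to 0.22. It gave Bcl6 between backgrounds -0.76 to 0.043, in ZFR Stat5a -0.14 to 1.27 and Bcl6 -1.77 to 0.044, and with BT2 Ghr -0.092 to 0.018, Stat5a -0.070 to 1.32, Stat5b -0.15 to 0.41 and Cish -0.82 to 0.69. Of the called genes on the chosen lists outside the 9, the call held without any 1 library for 13 of 19 with LNA29 in WT/Floxed mice, 2 of 9 in L-Sirt1 KO mice, 17 of 30 between backgrounds and 13 of 27 in ZFR, and none changed sign.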
